A study of Mus musculus with 37 samples.

Results

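Splenocytes that had shared a well with macrophage-like cells were compared with splenocytes that had received only the medium of such cells. The comparison used 12 unwashed co-culture libraries and 11 medium libraries, 23 of the 37 libraries of the series, chosen by their sample titles. Splenocytes, the mixed lymphoid and myeloid cells of the spleen, came from wild-type FVB mice. RAW264.7, a mouse macrophage-like line, had been cultured for 72 h at 21% oxygen (normoxia) or 1% oxygen (hypoxia), each with or without recombinant SPP1. Exposure of the splenocytes lasted 48 h, and brefeldin A, which blocks protein secretion, was added to the cultures before collection. In the unwashed arm, splenocytes were added to RAW cells that had not been given a media wash, and in the medium arm they received the medium of such cells. Each arm had 4 groups, by oxygen and SPP1, with 3 libraries in each except the medium, normoxia, no-SPP1 group, which had 2. Washed co-cultures (12 libraries) and naive splenocytes (2 libraries) entered the same model.

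As background, SPP1 (osteopontin) is secreted and acts through integrins and CD44, and it is made by macrophages and by many tumor cells. Medium carries the secreted products of macrophages, whereas co-culture adds cell contact and continued secretion. The contrast between the arms therefore addressed what the presence of the RAW cells added to their medium. RAW264.7 is also a mouse line, so RNA of any RAW cells collected with the splenocytes would enter the same counts. A call between the arms can thus hold RAW transcripts or a splenocyte response, which cannot be told apart here.

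The deposited table assigned reads from mouse cells to human Ensembl gene IDs of GRCh38. Each ID below therefore stands for mouse reads that aligned to a human gene, and reads of related genes could have been placed on the same ID. Neither the table nor the gene tables used here paired these IDs with names (0 rows of the gene tables held a human ID), so no symbol, function, genome position or sequence is given. Markers of T cells, B cells or macrophages could not be identified, and the labelled cell type was not checked against them. How many RAW cells were collected with the splenocytes was not tested. In these bulk samples, fewer cells of a type and less RNA per cell cannot be told apart.

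Total counts ranged from 818419 to 1328808 in the unwashed libraries and from 897879 to 1319225 in the medium libraries. The 10 most abundant IDs held 18.6% to 22.7% of the counts of an unwashed library and 14.1% to 16.5% of those of a medium library, so the ranges of the arms did not overlap. The median SD of log2 CPM (counts scaled to the library total) within groups was 0.476 in the unwashed arm and 0.452 in the medium arm.

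In all, 3 libraries stood apart. On the first principal component, which held 41.9% of the variance, the unwashed libraries scored 6.54 to 39.7 and 9 medium libraries scored -46.2 to -28.5. The library labelled medium hypoxia no-SPP1 replicate 1 scored 5.13 there, and the one labelled medium normoxia no-SPP1 replicate 3 scored 1.45, next to the unwashed libraries. On the second component (11% of the variance), unwashed hypoxia no-SPP1 replicate 2 scored 62.3, whereas the other 22 libraries scored -13.7 to 14.9.

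**Figure D1:**
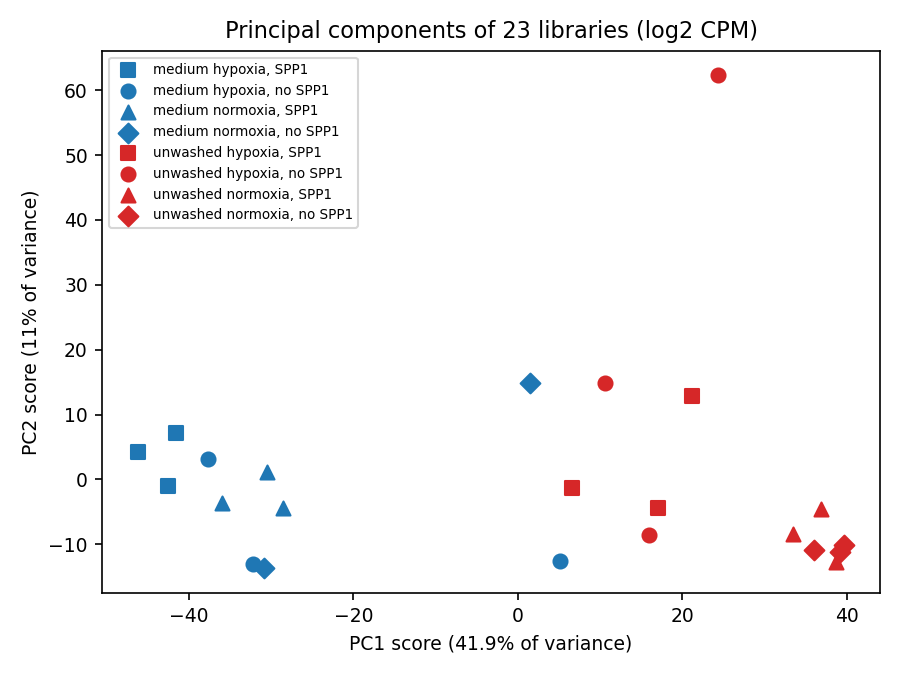
Scores of the 23 libraries on the first (horizontal) and second (vertical) principal component of log2 CPM, with the share of variance on each axis. Each point is a library, colored by arm and shaped by oxygen and SPP1; 9 medium libraries lie at -28.5 or lower on the horizontal axis and the other 2 lie beside the unwashed libraries.

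Between the arms, with oxygen and SPP1 groups weighted equally, 2531 of 5193 tested IDs were called at an adjusted P under 0.05 (edgeR quasi-likelihood test, Benjamini-Hochberg adjustment). This was 48.7% of the IDs tested. In unwashed co-culture 1215 IDs were higher (23.4%) and 1316 were lower (25.3%). Among called IDs, the decreases were larger than the increases in size. The median log2 fold change was -1.09 among the lower IDs and 0.84 among the higher IDs. These medians were not matched for level, and 323 lower but 129 higher IDs had a mean log2 CPM under 3. A change of at least 1 on the log2 scale was reached by 740 of the lower and 444 of the higher IDs, and one of at least 2 by 171 and 64. The median over all tested IDs was -0.02.

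The balance of directions varied with the level of an ID. Among 1287 IDs with a mean log2 CPM under 3 over all libraries, 10% were called higher and 25.1% lower. Among 984 IDs with a mean of 7 or more, 43.6% were called higher and 24.9% lower. The share called lower thus stayed between 24.7% and 27% in the 4 level ranges examined. The share called higher was greater in each range than in the one below it. The mean over all libraries covered 12 unwashed, 12 washed, 11 medium and 2 naive libraries, so the change of an ID entered its level. How far this shaped the pattern was not tested.

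**Figure D2:**
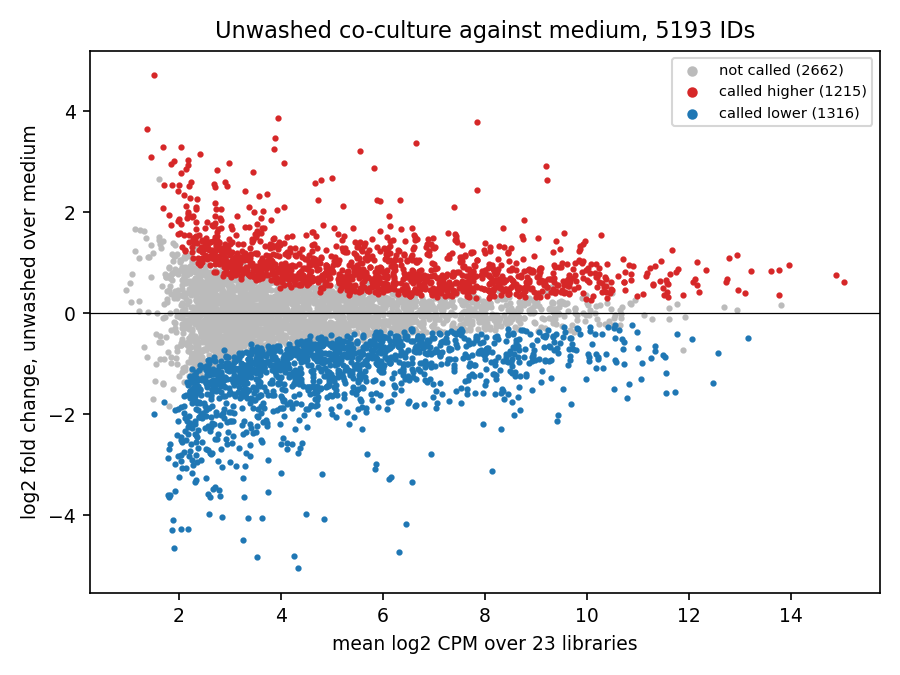
Log2 fold change of unwashed co-culture over medium (vertical) against the mean log2 CPM over the 23 libraries (horizontal) for 5193 IDs, each point an ID. Red points are the 1215 IDs called higher, blue points the 1316 called lower and grey points those not called; the lowest values reach -5.04.

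Separation of every library was much rarer than a call. In 92 IDs (1.77% of those tested) all 12 unwashed libraries lay above all 11 medium libraries, and in 105 IDs (2.02%) they all lay below. Without both medium libraries that stood apart, 2572 IDs were called, 1304 higher and 1268 lower, and 2365 of them were among the 2531.

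In all, 4 IDs were described in full, the 2 with the largest increase and the 2 with the largest decrease among 1478 called IDs with a mean log2 CPM of at least 4 and the same sign in all 4 matched pairs of groups. Their differences between the arms are what chose them and are given as a description.

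ENSG00000123358 had the largest increase. It was measured at 473 to 1965 CPM in the 12 unwashed libraries, with a median of 881, and at 17.1 to 706 CPM in the 11 medium libraries, with a median of 39.0. One medium library, normoxia no-SPP1 replicate 3, held the value of 706 CPM, and the other 10 lay below every unwashed library. The log2 fold change was 3.78 ± 0.31 (SE; adjusted P = 5.87e-12, edgeR).

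Within the unwashed arm ENSG00000123358 had separate levels by oxygen. It was at 1031 to 1965 CPM in the 6 normoxia libraries and at 473 to 731 CPM in the 6 hypoxia libraries, so these ranges did not overlap. How many of all IDs tested were separated in this direction was not counted. The contrast with medium was 3.51 ± 0.44 after normoxia and 4.05 ± 0.41 after hypoxia, and the difference of 0.55 ± 0.54 did not pass the test (adjusted P = 0.849, edgeR). Without medium normoxia no-SPP1 replicate 3, that difference was -1.02.

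ENSG00000114315 had the second largest increase and was the only one of the 4 IDs whose arms did not overlap. It ranged from 69.1 to 473 CPM in the unwashed libraries (median 377) and from 8.71 to 67.0 CPM in the medium libraries (median 28.6). The lowest unwashed value belonged to hypoxia no-SPP1 replicate 2 and the highest medium value to normoxia no-SPP1 replicate 3, both libraries that stood apart. The log2 fold change was 3.37 ± 0.38 (SE; adjusted P = 5.67e-09, edgeR). By group, the unwashed means were 445 ± 45.3 CPM in normoxia with SPP1, 412 ± 41.9 in normoxia without SPP1, 297 ± 83.9 in hypoxia with SPP1 and 200 ± 133 in hypoxia without SPP1 (SD, n = 3 each).

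ENSG00000091656 had the largest decrease. It ranged from 0 to 155 CPM in the medium libraries (median 112) and from 0 to 94.3 CPM in the unwashed libraries (median 5.07). The medium libraries at 0 and at 0.698 CPM were the 2 that stood apart, and the other 9 held 89.7 CPM or more. The log2 fold change was -5.04 ± 0.69 (SE; adjusted P = 4.51e-07, edgeR). It was -3.47 with an adjusted P of 0.053 (edgeR) when medium normoxia no-SPP1 replicate 2 was left out, which left that group with only the library that stood apart.

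The unwashed libraries of ENSG00000091656 divided by oxygen. In the 6 normoxia libraries it had 1 count in all, against 533 counts in the 5 medium normoxia libraries, a ratio of 614 with an exact Poisson 95% interval from 110 to 24307 that covers counting error only. In the 6 unwashed hypoxia libraries ENSG00000091656 was at 9.37 to 94.3 CPM, above every unwashed normoxia library, as were 127 (2.45%) of all IDs tested. The contrast after hypoxia was -1.47 ± 0.61 and did not pass the test (adjusted P = 0.0658, edgeR). Without both medium libraries that stood apart it was -1.76 and passed (adjusted P = 0.000249, edgeR).

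ENSG00000196154 had the second largest decrease. It ranged from 13.9 to 957 CPM in the medium libraries (median 583) and from 0.771 to 151 CPM in the unwashed libraries (median 28.4). Of the medium libraries, 9 lay above every unwashed library, and the other 2, at 13.9 and 34.2 CPM, were those that stood apart. The log2 fold change was -4.72 ± 0.43 (SE; adjusted P = 5.01e-11, edgeR).

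Oxygen again separated the unwashed libraries of ENSG00000196154. The 6 normoxia libraries held 0.771 to 6.26 CPM and the 6 hypoxia libraries 50.5 to 151 CPM. Separation in this direction was seen in 127 (2.45%) of all IDs tested. The contrast with medium was -6.83 ± 0.69 after normoxia (adjusted P = 3.3e-09, edgeR) and -2.62 ± 0.49 after hypoxia (adjusted P = 0.00014, edgeR).

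**Figure D3:**
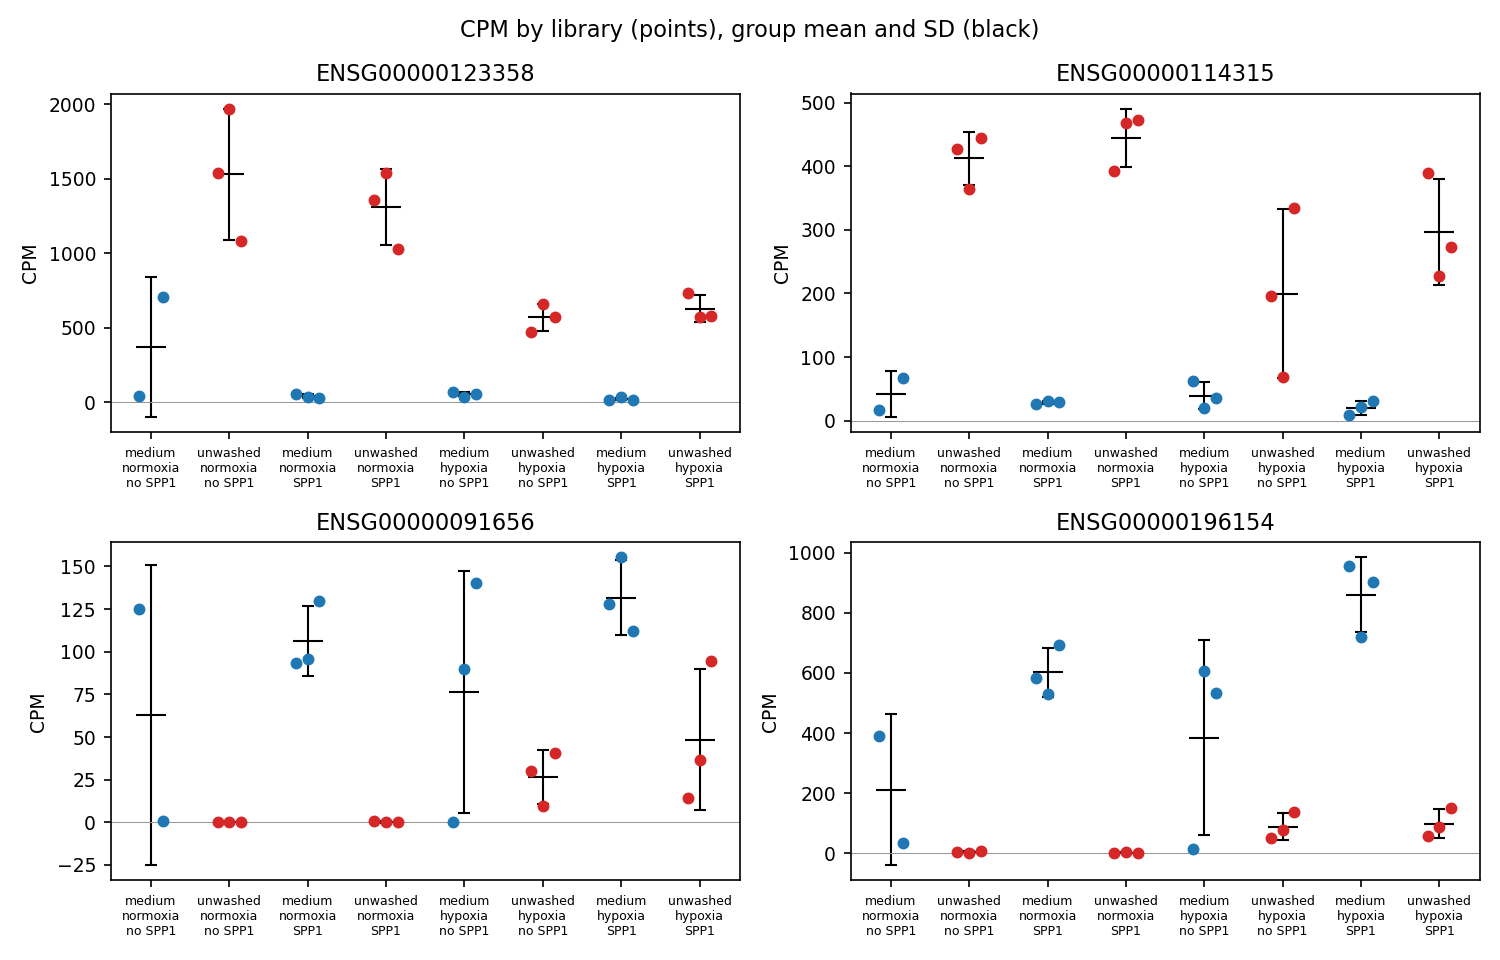
CPM (vertical, linear) of the 4 IDs in the 8 groups of medium (blue) and unwashed (red) libraries, each point a library, with the group mean and SD in black; SD bars of groups of 2 or 3 can pass below 0. ENSG00000091656 and ENSG00000196154 lie near 0 in unwashed normoxia and reach 94.3 and 151 CPM in unwashed hypoxia.

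Naive splenocytes gave a further level for these IDs. ENSG00000123358 was at 50.8 and 58.6 CPM in the 2 naive libraries and ENSG00000114315 at 18.5 and 10.4 CPM, within the range of the medium arm for both. ENSG00000196154 was at 5.86 and 33.9 CPM. ENSG00000091656 had 0 counts in both, and the mean of the medium arm was at least 28.4-fold higher than 3 counts per naive library. Against naive cells, ENSG00000123358 was higher by 4.07 ± 0.65 on the log2 scale in unwashed co-culture (adjusted P = 1.22e-05, edgeR) and by 0.29 ± 0.54 in medium (adjusted P = 0.709, edgeR). ENSG00000196154 was higher than in naive cells by 4.57 ± 0.92 in medium (adjusted P = 0.000236, edgeR), and its value in unwashed co-culture was -0.16 ± 0.75 (adjusted P = 0.903, edgeR). That value averaged unwashed normoxia, with a mean of 3.05 CPM, and unwashed hypoxia, with 93.6 CPM, around the naive mean of 19.9 CPM. These comparisons shared the 2 naive libraries, whose labels give no culture or exposure time. In a difference from naive cells, an effect of culture itself therefore cannot be told apart from one of medium or co-culture.

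Washed co-cultures were made with RAW cells after a media wash. In them, ENSG00000123358 ranged from 260 to 1700 CPM (median 985) and ENSG00000114315 from 11.6 to 221 CPM (median 146). The lowest value of each, in washed normoxia SPP1 replicate 1, lay within the range of the medium arm. ENSG00000091656 was at 0 to 1.04 CPM and ENSG00000196154 at 0 to 11.2 CPM in the 12 washed libraries. Both stayed below every unwashed hypoxia library.

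The contrast was next taken within each oxygen level. After normoxia 1774 IDs were called (34.2% of those tested), 770 higher (14.8%) and 1004 lower (19.3%). After hypoxia 1507 were called (29%), 765 higher (14.7%) and 742 lower (14.3%). The balance after hypoxia turned with the scaling, to 662 higher and 862 lower with RLE and to 708 and 930 with DESeq2. Of the IDs lower after normoxia, 558 were also lower after hypoxia, which was 55.6% of the first list and 75.2% of the second. Of the higher IDs, 464 were shared, 60.3% and 60.7% of the lists. One ID was lower after normoxia and higher after hypoxia. These lists used different libraries but a common estimate of the spread.

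The difference between the oxygen levels passed the test in 25 IDs (0.481% of those tested), and in all 25 it was positive, meaning that unwashed co-culture was lower relative to medium after normoxia than after hypoxia. The differences ranged from 1.18 to 7.34 on the log2 scale. Both contrasts are parts of the difference that chose the 25 IDs, so their calls and medians are given as a description. All 25 were called lower after normoxia, as were 19.3% of all IDs tested. After hypoxia 7 were called lower, 1 was called higher and 17 were not called. Of all IDs tested, 14.3% were called lower and 14.7% higher after hypoxia. The median contrast of the 25 was -4.79 after normoxia and -0.77 after hypoxia. ENSG00000091656 (7.14 ± 1.49, adjusted P = 0.0164, edgeR) and ENSG00000196154 (4.22 ± 0.84, adjusted P = 0.00824, edgeR) were among them.

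These levels entered the test that chose the 25 IDs and are given as a description. The median over the IDs of the mean CPM was 1.44 in unwashed normoxia, 28.5 in unwashed hypoxia, 50.8 in medium normoxia and 63.7 in medium hypoxia. In 12 of the 25, no unwashed normoxia library held more than 3 counts, so their fitted fold changes rest on a level near the counting limit. In 22 of the 25, all 6 unwashed hypoxia libraries lay above all 6 unwashed normoxia libraries, as they did in 127 (2.45%) of all IDs tested. In naive cells the same median was 5.53 CPM and in washed co-culture 4.27 CPM. The number of IDs depended on single libraries: it was 12 without unwashed hypoxia SPP1 replicate 3 and 50 without unwashed hypoxia no-SPP1 replicate 1, where 38 were positive and 12 negative. It was 14 without unwashed normoxia SPP1 replicate 3 and 16 without unwashed normoxia no-SPP1 replicate 1, and also 16 without medium hypoxia SPP1 replicate 2 or replicate 3. Without medium normoxia no-SPP1 replicate 2 it was 16, with 12 positive and 4 negative, and neither ENSG00000091656 (4.01) nor ENSG00000196154 (2.94) was then called. DESeq2 called 50 IDs, 38 positive and 12 negative.

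**Figure D4:**
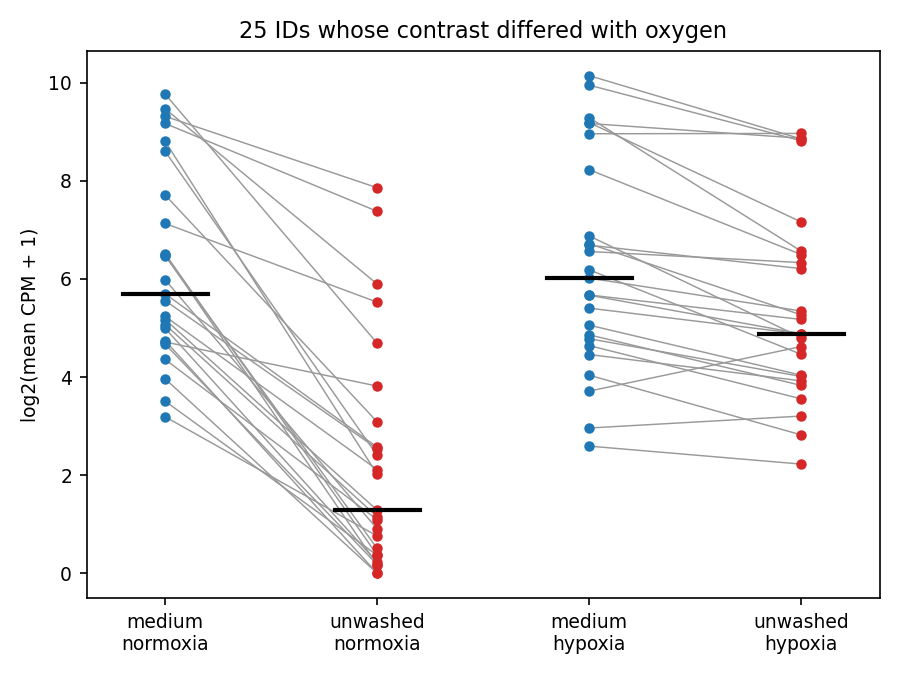
Mean CPM, as log2(mean CPM + 1), of the 25 IDs in medium and unwashed libraries after normoxia and after hypoxia, each point an ID, lines joining the arms at 1 oxygen level and black bars marking medians. The median is lowest in unwashed normoxia, at 1.44 CPM against 28.5 CPM in unwashed hypoxia.

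With SPP1 in the RAW culture 1974 IDs were called (38% of those tested), 951 higher (18.3%) and 1023 lower (19.7%) in unwashed co-culture. Without SPP1 the number was 1224 (23.6%), 509 higher (9.8%) and 715 lower (13.8%). Of the IDs called without SPP1, 84.1% of the higher and 81.8% of the lower were called in the same direction with SPP1, and none in the opposite direction. These shared IDs were 45% of the higher and 57.2% of the lower IDs called with SPP1. The no-SPP1 medium groups held both medium libraries that stood apart, and without those libraries 1463 IDs were called without SPP1. Leaving out medium normoxia no-SPP1 replicate 2 instead gave 593.

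No ID passed the test for a difference of the contrast between SPP1 and no SPP1 (0 of 5193 with edgeR, 0 with DESeq2), and 255 had an unadjusted P under 0.05. For ENSG00000123358 the contrast was 4.88 ± 0.43 with SPP1 and 2.68 ± 0.42 without, a difference of 2.19 ± 0.54 with an adjusted P of 0.33 (edgeR). DESeq2 gave a difference of 2.15 (adjusted P = 0.0862, DESeq2). With every ID with a count tested it was 2.21 and passed, but adjusted P values of this ID were far smaller in that fit. For its contrast over all groups, 3.78 in both fits, adjusted P was 7.6e-102 there and 5.87e-12 in the main fit (edgeR). Without medium normoxia no-SPP1 replicate 3, the library at 706 CPM, the contrast without SPP1 was 4.28 and the difference 0.62. Without replicate 2 of that group the difference was 2.69. Each omission left only the other library in that group. Leaving out medium normoxia no-SPP1 replicate 2 gave 9 IDs, all positive.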

How the data were processed

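Per the series text, QuantSeq 3′ single reads were trimmed with bbduk, aligned to GRCh38 with STAR 2.7.10b and counted by featureCounts (Rsubread 2.0.3). The authors deposited raw counts for 60708 human Ensembl IDs. The kit carried unique molecular identifiers, but whether counting used them, which annotation was used and how multi-mapped reads were handled are not given in the sources used here. A count may therefore include PCR copies.

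Counts were analyzed with R 4.3.3 and edgeR 4.0.16. filterByExpr (minimum count 10) kept 5193 of 22657 IDs with a count, holding 97.8% to 99.4% of each library. TMM scaling and 1 quasi-likelihood model with 13 group means were fitted to all 37 libraries, without a replicate term. SEs were derived from the F statistic. CPM used TMM-scaled totals, and log2 CPM a prior count of 2. In 22 within-group pairs, chi-square per degree of freedom was 2.78 to 33.3, so none of these pairs differed by less than sampling noise. Other pairs were not compared. Whether libraries of a group came from separate animals was not given for each, so P values measure the spread between libraries. The fit was tested on simulated data for the contrast over all groups only, with an equal spread for all IDs and no library set apart.

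The comparison and its rules were chosen with earlier results of these data known. The rule for named IDs required a symbol in a reference table. No table paired the IDs with symbols, so its fallback was used, 2 IDs that rose and 2 that fell, and the planned gene lists, cell type markers and 4 preset genes were not run. The alternatives tried were RLE scaling, no filter on low counts, DESeq2 1.42.0, a replicate block, only the 23 libraries, and libraries left out.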

Additional observations from a re-analysis of the deposited data

Results flagged for a closer look

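The contrast of unwashed co-culture with medium differed between hypoxia and normoxia in 25 IDs, by the test of the difference itself (edgeR quasi-likelihood test, adjusted P under 0.05). The 2 described IDs among them were ENSG00000091656, with a difference of 7.14 on the log2 scale, and ENSG00000196154, with one of 4.22. Both lost the call without medium normoxia no-SPP1 replicate 2, with values of 4.01 (adjusted P = 0.492, edgeR) and 2.94 (adjusted P = 0.0921, edgeR). The library then left in that group was replicate 3, which stood apart from the other medium libraries. Without replicate 3 instead, the library left in that group was replicate 2, and the values were 7.61 and 4.65. Without both medium libraries that stood apart, that group again held only replicate 2, and the values were 7.30 and 4.37. Those 2 libraries were picked by their scores in these same data, so fits without them are no independent test.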

How the results depend on the processing

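The counts of called IDs for the contrast over all groups, after normoxia, after hypoxia and with SPP1 stayed within 1.5 times the reported number under every alternative run. Leaving out 1 library at a time gave 2162 to 2572 IDs over all groups, 1211 to 1849 after normoxia, 1185 to 1675 after hypoxia, 1739 to 2039 with SPP1, 593 to 1379 without SPP1, 12 to 50 for the difference with oxygen and 0 to 9 for the difference with SPP1. The 593 and the 9 came from leaving out medium normoxia no-SPP1 replicate 2, after which that group is 1 library assumed to vary like the others. Leaving out replicate 3 of that group, alone or with the other medium library that stood apart, also left 1 library there. With every ID with a count, the difference with oxygen gave 68 IDs and that with SPP1 gave 9. DESeq2 gave 50 for the difference with oxygen, 38 positive and 12 negative. The difference with oxygen of ENSG00000123358 changed sign, to -0.92 without both medium libraries that stood apart and to -1.02 without the second of them alone, with a range of -1.02 to 1.05 over the libraries left out one at a time, and it passed the test in none of these fits. The difference with SPP1 of ENSG00000091656 was 0.50 and ranged from -2.61 to 0.99 over the libraries left out, below 0 without unwashed normoxia SPP1 replicate 1 (-0.35) or medium normoxia no-SPP1 replicate 2, with no call. The cause of these changes was not tested. With a replicate block, 2493 IDs were called over all groups and 25 for the difference with oxygen, and no count moved by more than 1.5 times. Deviations of same-numbered libraries in the 2 arms correlated at 0.14, -0.0458 and -0.105, so no pairing by replicate number was detected. These averages include the libraries that stood apart, so they cannot show that the numbers do not mark shared experiments. RLE scaling moved the median of all IDs to -0.08 and gave 1077 higher and 1429 lower. At these totals, 3 counts were 2.54 CPM on average in the unwashed normoxia libraries, which limits what can be said of IDs near 0 there.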
